A study of Homo sapiens with 8 samples.

Results

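Cyclin-dependent kinase (CDK) inhibitor genes of both families were described in MNNG/HOS, a human osteosarcoma cell line derived by chemical transformation of the HOS line. The genes were CDKN1A, CDKN1B and CDKN1C of the CIP/KIP family and CDKN2A, CDKN2B, CDKN2C and CDKN2D of the INK4 family. They were chosen by name, and every probe carrying one of these symbols in the platform annotation was taken. Of the 7 genes, 6 had a probe, 13 probes in all, out of 20040 genes named by 30102 probes with a single symbol. No probe was named for CDKN2C, which is not analysed here. Total RNA was labelled with biotin and hybridised to 8 expression arrays, 2 in each of 4 groups. The groups were cells given the solvent DMSO, cells given JQ1 at a labelled dose of 7.5 mM, cells given rapamycin at 12.5 nM, and cells given both drugs at those doses. JQ1 blocks the bromodomains of BET proteins, which recruit the transcription machinery to acetylated chromatin, and rapamycin inhibits the mTORC1 growth kinase. All groups came from 1 cell line, the labels give no treatment time, and it is not stated whether replicate arrays stand for separate cultures. The spread behind each p-value may thus be technical.

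CDK inhibitors hold back the cell cycle by binding CDKs or their cyclin complexes. The CIP/KIP proteins p21 (CDKN1A), p27 (CDKN1B) and p57 (CDKN1C) bind cyclin-CDK complexes of several kinds, whereas the INK4 proteins p16 (CDKN2A), p15 (CDKN2B), p18 (CDKN2C) and p19 (CDKN2D) bind CDK4 and CDK6 and keep D-type cyclins off them. The CDKN1B protein is held down by ubiquitin-dependent turnover, and the CDKN2A locus is lost in a share of osteosarcomas.

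The promoters of the 3 genes that were measured on every array are shown because their values were not arranged alike over the arrays. CDKN1A and CDKN2D were higher on arrays with JQ1, and CDKN1B on arrays with rapamycin, though no CDKN1B difference passed. Each is the 250 bases before a transcription start in RefSeq, build GRCh38.p14, written 5′ to 3′ on the strand of the gene. For CDKN1A this start, and the window with it, lies inside the span of the gene (36676463 to 36687332). The CDKN1B and CDKN2D windows lie directly before their genes. The windows are chr6:36678464-36678713 on the plus strand for CDKN1A, chr12:12717118-12717367 on the plus strand for CDKN1B, and chr19:10568980-10569229 on the minus strand for CDKN2D. Capitals mark GC boxes, GGGCGG on either strand.
CDKN1A: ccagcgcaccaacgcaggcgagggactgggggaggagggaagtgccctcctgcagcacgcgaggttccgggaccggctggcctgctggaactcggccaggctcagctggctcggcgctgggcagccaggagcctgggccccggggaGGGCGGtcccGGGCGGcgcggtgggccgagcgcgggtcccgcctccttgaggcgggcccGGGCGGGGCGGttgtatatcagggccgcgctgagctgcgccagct
CDKN1B: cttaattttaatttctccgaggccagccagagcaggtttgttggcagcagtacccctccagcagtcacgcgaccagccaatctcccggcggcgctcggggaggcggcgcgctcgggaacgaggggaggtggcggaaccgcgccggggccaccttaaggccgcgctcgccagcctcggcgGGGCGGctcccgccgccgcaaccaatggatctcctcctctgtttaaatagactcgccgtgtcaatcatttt
CDKN2D: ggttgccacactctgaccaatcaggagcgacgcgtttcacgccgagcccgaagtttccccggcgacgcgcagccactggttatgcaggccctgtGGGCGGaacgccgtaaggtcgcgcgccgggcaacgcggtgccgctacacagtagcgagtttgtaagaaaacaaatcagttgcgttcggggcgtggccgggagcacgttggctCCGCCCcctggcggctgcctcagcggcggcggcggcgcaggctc
All 3 windows were rich in G and C, at 76.4% for CDKN1A, 64.4% for CDKN1B and 67.6% for CDKN2D. CDKN1A held 4 GC boxes, the last 2 overlapping by 1 base, and 7.63% of 35116 RefSeq promoters of this length held at least as many. CDKN1B held 1 and CDKN2D held 2, against 42.6% of promoters with at least 1. The CCAAT box, spelled CCAAT on either strand, occurred 2 times in CDKN1B, 1 time in CDKN2D and 0 times in CDKN1A, and in 32% of promoters. The E-box CACGTG and the forkhead motif GTAAACA, found in 6.34% and 2.98% of promoters on either strand, had no match in any of the 3 windows. These letter matches are descriptions of the sequence and not measured binding sites.

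Values are normalized intensity on a linear scale, in which the lowest value is 20. Between 55.7% and 58.6% of the 47304 probes of an array stood at this floor, and mean intensity per array ran from 455.5 to 481.6. The 23860 probes above 20 on at least 2 of the 8 arrays were tested. Of the 13 CDK inhibitor probes, 4 (of CDKN1A, CDKN1B and CDKN2D) were above the floor on all arrays, 3 on some arrays and 6 on none, and 7 were tested. Of the mesenchymal markers, VIM (28108 to 33757) and CDH2 (667 to 1247) were above the floor on all arrays, whereas FN1 was at 20 on 7 of 8 arrays with its brightest probe and at 29.6 on the other. Of 9 osteoblast lineage markers, COL1A1 (81.9 to 262), SPARC (278 to 784) and SPP1 (266 to 501) were above the floor on all arrays, BGLAP (20 to 30.8) and IBSP (20 to 22.1) were near it, and SP7, COL1A2 and ALPL were at the floor throughout. The brighter of 2 RUNX2 probes was at the floor on the 4 arrays with JQ1 but at 75.5 to 111 on the others. The other RUNX2 probe was above the floor on 6 of the 8 arrays. Endothelial CDH5 and VWF, epithelial CDH1 and KRT5, and haematopoietic PTPRC, CD3E and HBB were at the floor on all 8 arrays. Epithelial EPCAM, KRT8 and KRT18 were above it on all 8. The second deposited table, which holds non-normalized signals, names 6 of the 8 arrays differently. Group names here follow the value table, whose columns belong to the sample records, and the values under the other names are given after the results.

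CDKN1A, on chromosome 6 (36676463 to 36687332, GRCh38.p14), encodes p21, which arrests cells by inhibiting cyclin-CDK complexes and by binding PCNA. Its level was high on every array that had received JQ1. Probe ILMN_1784602 read 1849.6 and 1738 with DMSO, 10544 and 12225 with JQ1, 4019 and 3365 with rapamycin, and 13677 and 11901 with both drugs. The 4 groups fell in the order DMSO, rapamycin, JQ1, both, and of neighbouring groups in this order the JQ1 and combination arrays overlapped while the others did not. The 4 arrays with JQ1 (10544 to 13677) were all above the 4 without (1738 to 4019), as were 5.48% of the probes tested.

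JQ1 alone raised CDKN1A 6.33-fold over DMSO (95% confidence interval 4.59 to 8.74, log2 change 2.66, SE 0.20, limma adjusted p = 0.0116). The increase was 5.70-fold within replicate 1 and 7.03-fold within replicate 2. Both drugs together raised it 7.12-fold over DMSO (5.15 to 9.82, log2 change 2.83, SE 0.20, adjusted p = 0.00638) and 3.47-fold over rapamycin alone (2.51 to 4.79, log2 change 1.79, SE 0.20, adjusted p = 0.0191). Averaged over both rapamycin states, JQ1 raised it 4.69-fold (3.73 to 5.89, log2 change 2.23, SE 0.14, adjusted p = 0.00199). The averaged effect was called in 8 of 8 omissions of a single array. With any one DMSO, JQ1 or rapamycin array left out, the change with JQ1 alone was 2.56 to 2.77 with adjusted p of 0.0579 to 0.132, and it was called only without either of the combination arrays (adjusted p = 0.0468 in both). The combination against DMSO lost its call without DMSO replicate 1 (adjusted p = 0.0737), DMSO replicate 2 (0.0772) or combination replicate 1 (0.0717). The combination against rapamycin lost it in all 8 omissions, at 1.67 to 1.92 with adjusted p of 0.0609 to 0.149.

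With rapamycin alone CDKN1A was 2.05-fold the DMSO level (1.49 to 2.83, log2 change 1.04, SE 0.20), which did not pass over all probes (limma adjusted p = 0.227). Both rapamycin arrays were above both DMSO arrays, but the share of all probes with this order was not counted. On top of JQ1, rapamycin left a difference of 1.12-fold (0.814 to 1.55, log2 change 0.17, SE 0.20, adjusted p = 0.911), 1.30-fold in replicate 1 and 0.974-fold in replicate 2. The interaction, which measures how far the combination departed from the sum of the separate log2 changes, was -0.87 (SE 0.28, adjusted p = 0.9998) and did not pass. The interval of the interaction ran from -1.53 to -0.21 before any adjustment for the number of probes.

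The second CDKN1A probe, ILMN_1787212, was assigned to another transcript record and was above the floor on only 2 arrays, both with JQ1. It read 34.7 on JQ1 replicate 1 and 145 on combination replicate 1, and 20 on the other 6 arrays. In both groups with JQ1, replicate 1 was therefore above the floor and replicate 2 at it. Both DMSO arrays stood at the floor, as did 1 of the 2 combination arrays, and the fitted log2 change of 1.43 between these groups (SE 0.82, adjusted p = 0.404) was not called. The mean of both CDKN1A probes gave a log2 change of 1.53 with JQ1 alone (adjusted p = 0.129), and over all settings tried with the value table's names this change ranged in adjusted p from 0.000832 to 0.176.

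**Figure D1:**
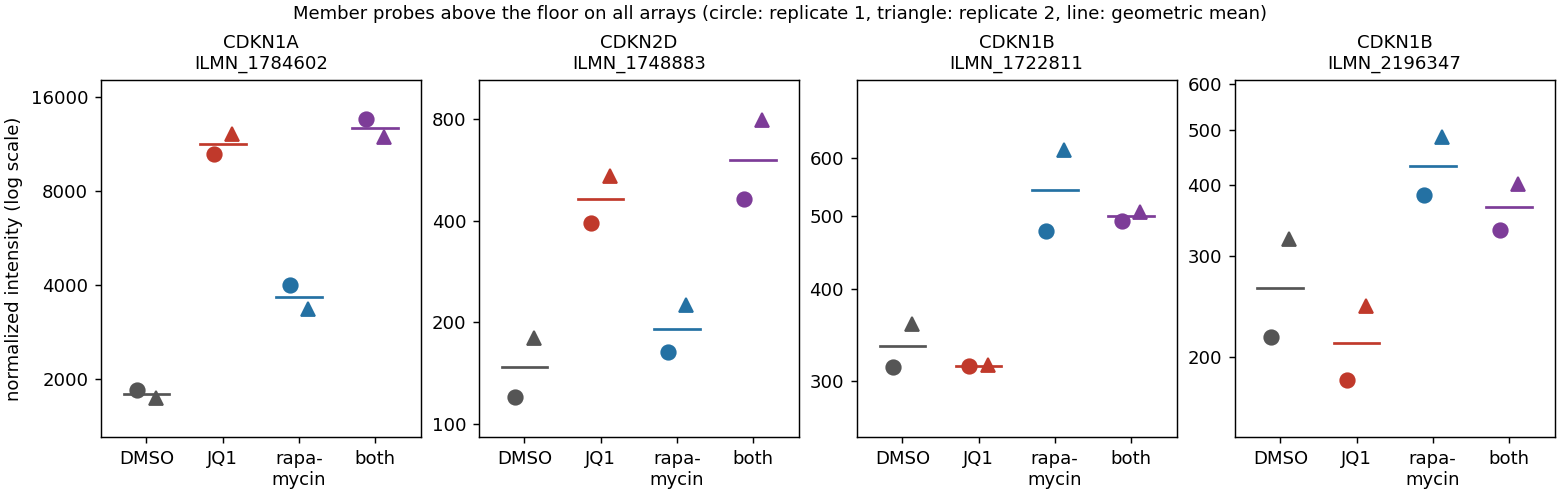
Normalized intensity on a log scale for the 4 CDK inhibitor probes above the floor on all arrays, by group, with a circle for replicate 1, a triangle for replicate 2 and a line at the geometric mean. CDKN1A (10544 to 13677 against 1738 to 4019) and CDKN2D (394 to 795 against 120.3 to 225) separate arrays with and without JQ1, whereas both CDKN1B probes separate arrays with and without rapamycin.

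CDKN1B, on chromosome 12 (12717368 to 12722369), encodes p27, the inhibitor of cyclin E-CDK2 that accumulates in resting cells. Its level did not follow JQ1 but was higher on every array with rapamycin. Probe ILMN_1722811 read 313 and 358 with DMSO, 314 and 316 with JQ1, 479 and 615 with rapamycin, and 493 and 507 with both drugs. Its groups fell in the order JQ1, DMSO, both, rapamycin. The JQ1 values lay within the DMSO range, the combination values lay within the rapamycin range, and these 2 pairs of groups did not overlap each other. Probe ILMN_2196347 read 216 and 322 with DMSO, 182 and 246 with JQ1, 384 and 485 with rapamycin, and 333 and 402 with both drugs, and its groups fell in the same order. In it the 4 arrays with rapamycin (333 to 485) stood above the 4 without (182 to 322), as they did in the first probe (479 to 615 against 313 to 358). Of all probes tested, 2.62% were separated in this way.

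None of these differences passed over all probes. Against DMSO, rapamycin gave 1.62-fold with the first probe (1.17 to 2.24, log2 change 0.70, SE 0.20, limma adjusted p = 0.340) and 1.64-fold with the second (1.03 to 2.59, log2 change 0.71, SE 0.28, adjusted p = 0.506). Within replicates 1 and 2 the first probe gave 1.53-fold and 1.72-fold and the second 1.78-fold and 1.51-fold. On top of JQ1, rapamycin gave 1.59-fold (1.15 to 2.20, adjusted p = 0.495) and 1.73-fold (1.09 to 2.74, adjusted p = 0.534). Averaged over both JQ1 states the values were 1.60-fold (1.27 to 2.02, log2 change 0.68, SE 0.14, adjusted p = 0.143) and 1.68-fold (1.21 to 2.33, log2 change 0.75, SE 0.20, adjusted p = 0.201). These are the smallest adjusted p-values of CDKN1B in the 8 comparisons without a block, and rapamycin averaged over JQ1 states was called at 6 probes in all. With the replicate number as a block the adjusted p-values in limma were 0.059 and 0.0509, and 200 probes in all were called. Neither CDKN1B probe passed. JQ1 alone gave 0.940-fold (0.679 to 1.30, adjusted p = 0.922) and 0.802-fold (0.505 to 1.27, adjusted p = 0.705) against DMSO. The haematopoietic marker CD14 read 28.8 to 164 with rapamycin and 171 to 476 without. The summed level of the 4 measured haematopoietic markers was 341 to 536 with DMSO, 231 to 368 with JQ1, 111 to 224 with rapamycin and 88.8 to 205 with both. PTPRC, CD3E and HBB were at the floor throughout, so this sum differed between arrays through CD14 alone. The part of these markers in the CDKN1B values was not tested.

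CDKN1C, an imprinted gene on chromosome 11 (2883218 to 2885775), encodes p57, the CIP/KIP member most tied to development and differentiation. Its only probe, ILMN_1718565, stayed close to the floor. It read 20 and 20 with DMSO, 20 and 42.7 with JQ1, 20 and 28.0 with rapamycin, and 22.0 and 66.4 with both drugs. The combination arrays were the only group with both values above 20, and replicate 2 was the higher array in the 3 drug groups. The combination mean was at least 1.91-fold the DMSO floor (log2 change 0.94, SE 0.56, limma adjusted p = 0.433), which did not pass. Of its neighbours at 11p15, KCNQ1 was at the floor on all arrays, KCNQ1OT1, the antisense transcript that silences CDKN1C on the paternal chromosome, read 59.8 to 112, the growth-restricting imprinted gene PHLDA2 read 213 to 1000, and the histone chaperone gene NAP1L4 read 1288 to 2108. None of these was called in any of the 8 limma comparisons without a block. PHLDA2 had a log2 change of 1.10 with JQ1 averaged over rapamycin states (adjusted p = 0.0805, and 0.0142 with the replicate number as a block). With that block PHLDA2 (1.37, adjusted p = 0.0407) and KCNQ1OT1 (0.85, adjusted p = 0.0338) were also called with both drugs against rapamycin. No probe was named for SLC22A18 or CARS1.

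CDKN2D, on chromosome 19 (10566460 to 10568979), encodes p19, an INK4 protein that inhibits CDK4 and CDK6. Like CDKN1A it was high on every array with JQ1. Probe ILMN_1748883 read 120.3 and 179.8 with DMSO, 394 and 544 with JQ1, 163 and 225 with rapamycin, and 464 and 795 with both drugs. The groups fell in the order DMSO, rapamycin, JQ1, both. DMSO overlapped rapamycin and JQ1 overlapped the combination. No array without JQ1 (120.3 to 225) reached the lowest array with it (394), as for 5.48% of the probes tested. Replicate 2 was the higher array in 4 of 4 groups.

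Both drugs together raised CDKN2D 4.13-fold over DMSO (2.29 to 7.43, log2 change 2.04, SE 0.36, limma adjusted p = 0.0312), 3.85-fold within replicate 1 and 4.42-fold within replicate 2. Averaged over rapamycin states, JQ1 raised it 3.16-fold (2.09 to 4.79, log2 change 1.66, SE 0.25, adjusted p = 0.0137). JQ1 alone gave 3.15-fold over DMSO (1.75 to 5.66, log2 change 1.65, SE 0.36), which did not pass at adjusted p = 0.0806 but did with the replicate number as a block (adjusted p = 0.00789, with 0.00789 to 0.36 over the settings tried with the value table's names). The combination gave 3.17-fold over rapamycin (1.76 to 5.71, log2 change 1.67, SE 0.36, adjusted p = 0.0797, and 0.00913 with the block, with 0.00913 to 0.343 over those settings). Rapamycin alone gave 1.30-fold over DMSO (0.723 to 2.34, adjusted p = 0.856), rapamycin on top of JQ1 gave 1.31-fold (0.728 to 2.36, adjusted p = 0.873), and the interaction was 0.01 (SE 0.50, adjusted p = 0.9998). The call against DMSO was lost in all 8 omissions of a single array, at 1.66 to 2.43 with adjusted p of 0.0678 to 0.183. The averaged JQ1 effect kept its call only without JQ1 replicate 1 (adjusted p = 0.0487) or combination replicate 1 (0.0385), and had log2 changes of 1.47 to 1.85 over the 8 omissions with adjusted p up to 0.0809. The second CDKN2D probe, ILMN_1740597, assigned to another transcript record, was at 20 on all 8 arrays.

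**Figure D2:**
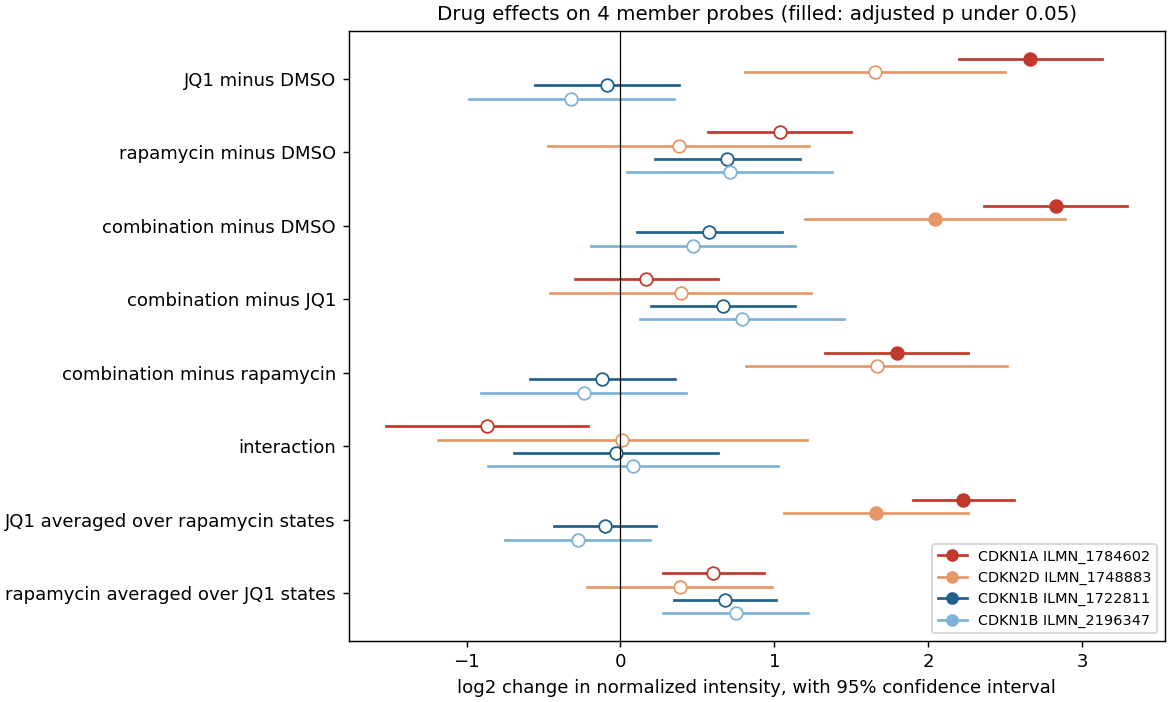
Log2 change in normalized intensity, with its 95% confidence interval, of the 4 probes measured on every array in the 8 comparisons, filled where the adjusted p was under 0.05. CDKN1A is filled in the 4 comparisons that contrast JQ1 with its absence, CDKN2D in the combination against DMSO and in the averaged JQ1 effect, and CDKN1B in none.

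CDKN2A and CDKN2B lie side by side at 9p21 on chromosome 9 (21967752 to 21995324 and 22002903 to 22009313), where CDKN2A also encodes ARF, the inhibitor of MDM2. All 3 CDKN2A probes, ILMN_1717714, ILMN_1744295 and ILMN_1757255, each assigned to its own transcript record, were at 20 on all 8 arrays. Of the CDKN2B probes, ILMN_1670111 and ILMN_2376723 were at 20 on all arrays, and ILMN_1723198 was above the floor at 37.9 on rapamycin replicate 1 and 21.02 on combination replicate 2. The rapamycin group of that probe overlapped DMSO at the floor, and its log2 change against DMSO was 0.46 (limma adjusted p = 0.765). Before normalization, the 6 probes at the floor on all arrays, including the second CDKN2D probe, gave background-subtracted signals of -19.97 to 16.5 in 48 measurements, 31 of them below 0. Of the 20040 named genes, 29.3% had every probe at the floor on all 8 arrays, so a gene without signal was common on this platform.

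The genes around CDKN2A and CDKN2B did not all lack signal. MTAP, which encodes the methylthioadenosine salvage enzyme and lies next to CDKN2A, the long noncoding RNA CDKN2B-AS1 (2 probes) and the neuronal RNA-binding protein gene ELAVL2 were at 20 on all arrays. The interferon gene IFNE read 20 to 29.3. DMRTA1 read 28.8 to 83.1 and KLHL9, a substrate adaptor of the CUL3 ubiquitin ligase, read 149 to 574. Signal did not follow distance, since ELAVL2 (from 23690104) lies farther from CDKN2A and CDKN2B than DMRTA1 (from 22446824) or KLHL9 (up to 21335404). DMRTA1 fell by 1.05 on the log2 scale with JQ1 averaged over rapamycin states (limma adjusted p = 0.0248), and KLHL9 fell by 1.35 (adjusted p = 0.0187). With JQ1 alone KLHL9 had -1.51 (adjusted p = 0.078, and 0.0125 with the block). The arrays measure RNA, and whether the DNA of these loci is present in the cells was not tested.

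**Figure D3:**
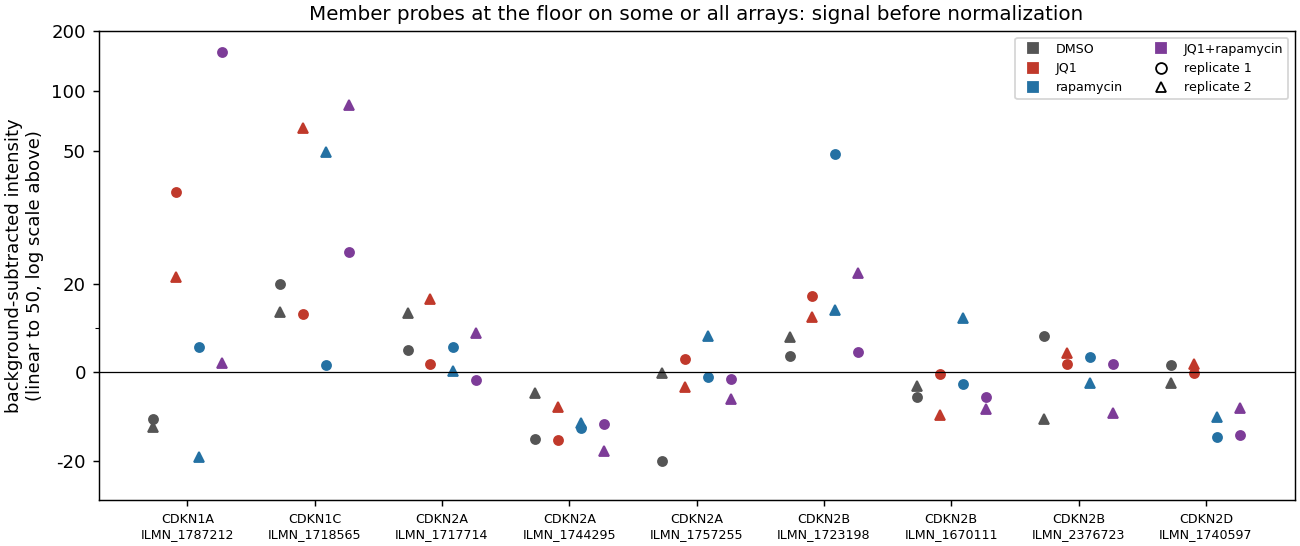
Background-subtracted intensity before normalization (linear to 50, log scale above) of the 9 CDK inhibitor probes at the floor on some or all arrays, coloured by group, with circles for replicate 1 and triangles for replicate 2. The 6 probes at the floor on all arrays lie between -19.97 and 16.5, and the highest dim value belongs to the second CDKN1A probe on combination replicate 1.

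Over the 7 CDK inhibitor probes tested, 1 was called higher and 0 lower with JQ1 alone, against 1.74% of all probes called in either direction and 0.637% called higher. With both drugs against DMSO, 2 were called higher (background 4.46%, and 1.79% higher). With both drugs against rapamycin, 1 was called higher (background 1.48%, and 0.545% higher), and with JQ1 averaged over rapamycin states, 2 were called higher (background 7.7%, and 2.82% higher). With the replicate block 2 were called with JQ1 alone (background 6.12%) and 2 with both drugs against rapamycin (background 6.13%). In the limma fit 0 were called with rapamycin alone (background 0.0126%), with 3 at an unadjusted p under 0.05. Likewise 0 were called with rapamycin averaged over JQ1 states (background 0.0251%), with both drugs against JQ1 (background 0%) and in the interaction (background 0%), with 3, 2 and 1 at an unadjusted p under 0.05. The 3 dim probes entered the test through drug-treated arrays alone, so these counts describe the 7 probes and not the 7 genes.

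CDKN1A and CDKN2D varied together over the 8 arrays (Pearson r = 0.911), whereas CDKN1A gave 0.093 and -0.0994 with the 2 CDKN1B probes, which gave 0.923 with each other. These correlations describe arrays that share groups and replicate numbers. Among 8918 genes above the floor on all arrays, those most like CDKN1A were DGKQ (r = 0.991), a diacylglycerol kinase gene, RAET1G (0.988), an NKG2D ligand gene, and GTF2B (0.985), the general transcription factor TFIIB. Arrays with JQ1 averaged 2.69, 2.64 and 2.39 times those without for these genes. Those most like the brighter CDKN1B probe were HMGB2, DVL2 and TBC1D23, each at 0.972 and at 1.79, 1.44 and 1.77 times with rapamycin over without. Those most like CDKN2D were the sulfurtransferase gene TST (0.992), the cytochrome c oxidase subunit gene COX7B (0.990) and the histone gene H2BC21 (0.986), at 2.25, 1.25 and 6.57 times with JQ1 over without.

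Around the inhibitors, few partner and regulator genes passed, counted over the brightest probe of each gene. Of 12 tested cyclin, CDK and PCNA genes, limma called 0 in any of the 8 comparisons, with a median log2 change of 0.01 for JQ1 averaged over rapamycin states against -0.01 over all 12759 genes, and 3 at an unadjusted p under 0.05. With the replicate block, 1 was called higher and 3 lower in that comparison (background 19.6%). The one called higher was CCNE1, which encodes cyclin E1 (log2 change 1.19, adjusted p = 0.119, and 0.00453 with the block). The lower ones were CCNA2 (-0.48), CDK4 (-0.57) and CDK6 (-0.80), whose adjusted p without the block were 0.278, 0.226 and 0.241. The block also gave 1 call higher with JQ1 alone (background 7.89%) and 1 higher with both drugs against rapamycin (8%). It gave 1 call lower with both drugs against DMSO (15.5%) and 1 lower with rapamycin averaged over JQ1 states (0.98%). The smallest p-values against DMSO belonged to CCND3, which encodes cyclin D3 (log2 change -0.71 with rapamycin alone, adjusted p = 0.306), and to PCNA, the replication clamp that p21 binds (-0.56 with rapamycin alone, adjusted p = 0.381). Of 14 genes of CIP/KIP protein turnover, 0 were called in any comparison without the block (4 at an unadjusted p under 0.05 for JQ1 averaged), against a background of 9.94% for JQ1 averaged and 5.78% for both drugs against DMSO. SKP2, whose product marks p27 for destruction, had a log2 change of -0.84 with rapamycin alone (adjusted p = 0.320). CUL1, the scaffold of the SKP2 ubiquitin ligase, had -0.89 with both drugs against DMSO (adjusted p = 0.0953, and 0.019 with the block) and -0.53 with JQ1 averaged (0.125, and 0.0258 with the block). PSME3, a proteasome activator gene, had -1.01 with both drugs against DMSO (adjusted p = 0.186, and 0.0198 with the block) and -0.90 with rapamycin averaged over JQ1 states (0.242, and 0.0484 with the block). With the block, 2 of the 14 were thus called lower with both drugs against DMSO (background 15.5%), 1 with JQ1 averaged (19.6%) and 1 with rapamycin averaged (0.98%).

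Of 12 tested RB and E2F genes, 0 rose and 2 fell with JQ1 averaged over rapamycin states, against 9.94% of genes called and 6.2% called lower. The median of the 12 was -0.34. E2F2, an activating E2F, read 228 and 285 with DMSO, 34.1 and 34.3 with JQ1, 191 and 114 with rapamycin, and 39.9 and 43.8 with both drugs. It fell by 2.36 on the log2 scale (SE 0.20, limma adjusted p = 0.00255). E2F5, which works with the RB relatives RBL1 and RBL2, read 931 and 1049.8 with DMSO, 343 and 318 with JQ1, 838 and 715 with rapamycin, and 354 and 282 with both. It fell by 1.44 (SE 0.14, adjusted p = 0.00406). TFDP2, an E2F partner, had a log2 change of 1.37 with rapamycin alone (adjusted p = 0.326), and E2F4, a repressive E2F, had -0.92 with both drugs against DMSO (adjusted p = 0.122, and 0.0414 with the block). With the block 3 of the 12 were called lower with JQ1 averaged (background 19.6%, and 12% lower). The third was RBL1, which encodes an RB relative (-0.98, adjusted p = 0.194, and 0.0215 with the block). With both drugs against DMSO, 2 fell in the fit without the block (background 5.78%, and 3.42% lower). With the block 5 were called lower in that comparison (background 15.5%, and 9.34% lower). Among them were RBL1 (-1.62, adjusted p = 0.151, and 0.0172 with the block) and the E2F partner TFDP1 (-0.72, adjusted p = 0.208, and 0.0476 with the block). Both E2F2 and E2F5 also fell with JQ1 alone, with both drugs against DMSO and with both drugs against rapamycin. The arrays of these 2 genes with JQ1 lay below all arrays without it, as for 7.78% of the probes tested, the reverse of CDKN1A and CDKN2D.

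Of 23 tested transcription regulators of CDK inhibitor genes, 1 rose and 3 fell with JQ1 averaged over rapamycin states (3 and 4 with the block), with a median of 0.05. The background in this comparison was 9.94% of genes called, and 19.6% with the block. ID1, which restrains ETS-driven CDKN2A transcription, rose by 1.60 on the log2 scale (limma adjusted p = 0.0047). SP1, which binds GC boxes such as those of the CDKN1A promoter, fell by 0.91 (adjusted p = 0.0103). SMAD3, a TGF-beta effector that activates CDKN2B and CDKN1A, fell by 0.83 (adjusted p = 0.0209), and ZBTB17, which activates CDKN2B and CDKN1A unless MYC binds it, fell by 0.64 (adjusted p = 0.036). With both drugs against DMSO, 2 rose and 2 fell, against 5.78% of genes called, and 4 higher and 3 lower were called with the block (background 15.5%). The risers were KLF6, an activator of CDKN1A (1.80, adjusted p = 0.0139), and FOXO3, an activator of CDKN1B (1.10, adjusted p = 0.0348). FOXO1, its relative, had 1.03 (adjusted p = 0.0732, and 0.0301 with the block). With rapamycin alone limma called 0 of the 23 (background 0.0235%), with 7 at an unadjusted p under 0.05. With rapamycin averaged over JQ1 states 0 were called without the block, and 1 was called higher with it (background 0.98%). MDM2, a ubiquitin ligase gene, was near the floor (20 to 35.2), and MYC read 105 to 976, with a log2 change of 2.09 with both drugs against DMSO (adjusted p = 0.126, and 0.0359 with the block).

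**Figure D4:**
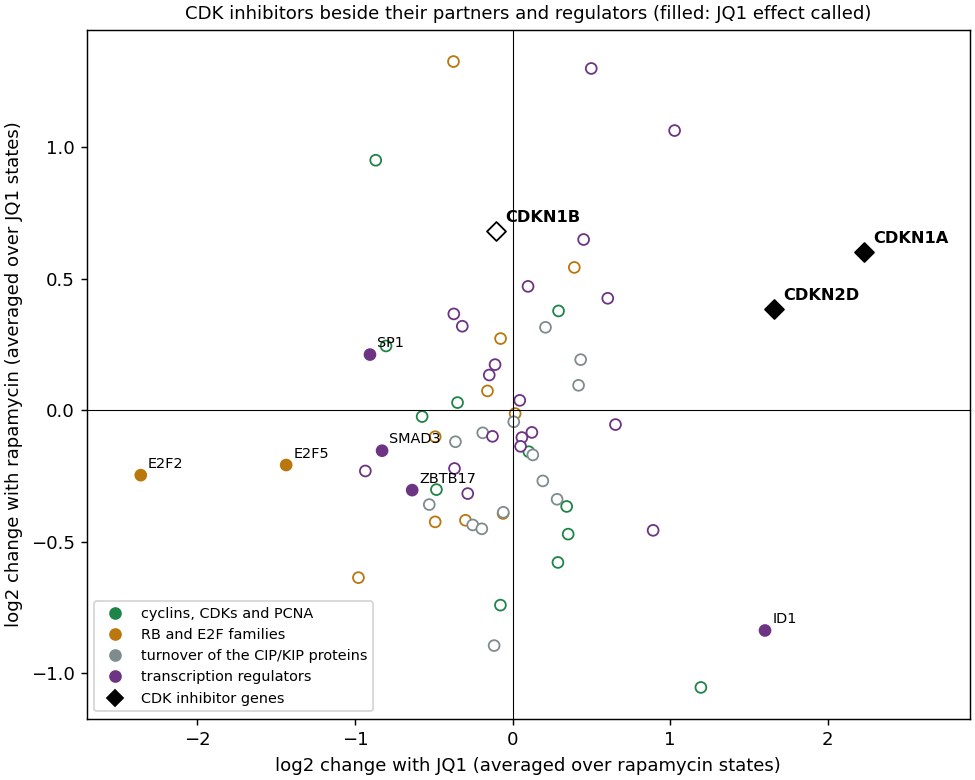
Log2 change with rapamycin averaged over JQ1 states (vertical) against log2 change with JQ1 averaged over rapamycin states (horizontal) for partner and regulator genes, with CDK inhibitor genes as diamonds and filled symbols where the JQ1 effect had an adjusted p under 0.05. CDKN1A (2.23) and CDKN2D (1.66) lie to the right and E2F2 (-2.36) and E2F5 (-1.44) to the left, while CDKN1B (0.68 with rapamycin) lies above the centre.

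The array names of the second, non-normalized table would regroup the arrays. The arrays were matched to the value table by rank correlation, each array reaching at least 0.997 with its match and at most 0.9795 with any other. Under the header's names each group joins 1 array with JQ1 and 1 without, as the value table names them. The header's groups with JQ1 together hold every array that the value table names as given rapamycin. Its groups with rapamycin together hold every replicate 2 array of the value table. The 2 CDKN1A arrays of a group then differed by 5.70-fold for DMSO, 3.40-fold for JQ1, 7.03-fold for rapamycin and 3.54-fold for both, against 1.06-fold, 1.16-fold, 1.19-fold and 1.15-fold under the names used here. For CDKN2D the distances were 2.85-fold to 3.54-fold against 1.38-fold to 1.71-fold, whereas for CDKN1B they were 1.003-fold to 1.31-fold against 1.004-fold to 1.49-fold. With the value table's own values under the header's names, a setting added once values had been seen, none of the 7 CDK inhibitor probes was called by limma in any of the 8 comparisons. CDKN1A then had a log2 change of 0.75 with JQ1 alone (adjusted p = 0.971), CDKN2D 0.96 with both drugs against DMSO (adjusted p = 0.711) and the second CDKN1B probe 1.15 with both drugs against DMSO (adjusted p = 0.0903). When the values were also taken from the non-normalized table, with normexp and quantile normalization, these changes were 0.51 (adjusted p = 0.971), 0.73 (0.761) and 1.06 (0.0308), and the last was the only CDK inhibitor call. That fit changed names, table and normalization together.

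**Figure D5:**
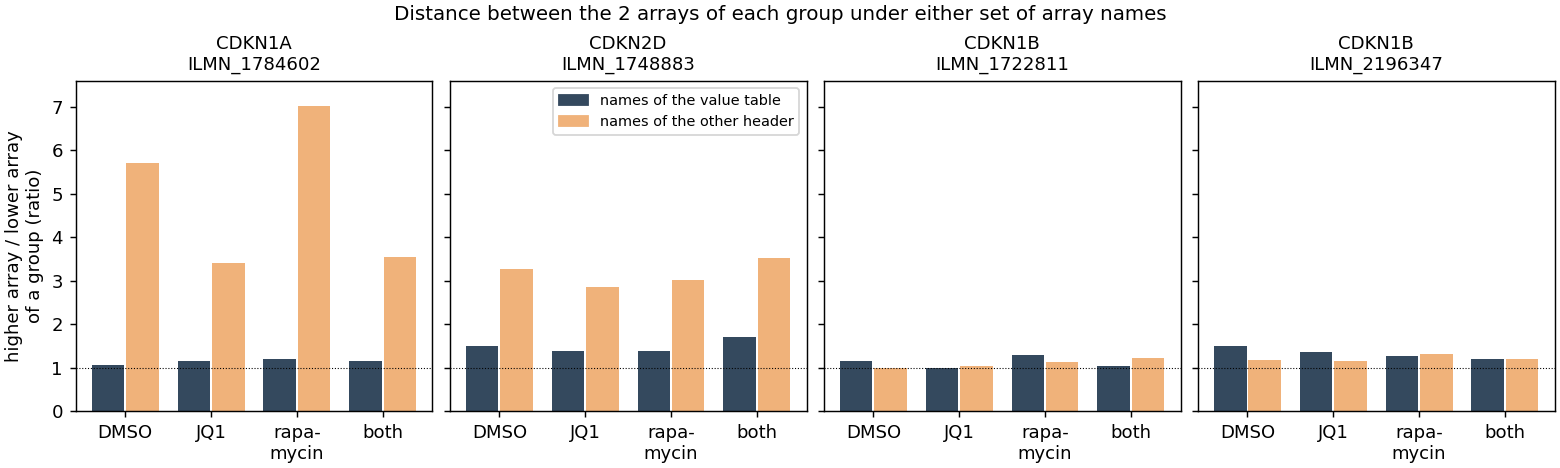
Ratio of the higher to the lower array of each group for the 4 probes measured on every array, under the names of the value table (dark bars) and of the other table's header (light bars), with a dotted line at equality. The CDKN1A bars reach 7.03 under the header's names and at most 1.19 under the value table's, and the CDKN1B bars stay at or below 1.49 in both.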

How the data were processed

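Total RNA of MNNG/HOS cells was measured on 8 arrays, 2 per group. Both tables hold linear probe intensity deposited by the authors: one non-normalized, with 28.3% to 30.3% of values per array below 0, and one normalized with a floor of 20, so that the median of every array is 20. The normalization method and software were not given in the sources used here. Probe identifiers are Illumina's, although the design text speaks of another maker's arrays. Of 47304 probes, 30102 have 1 symbol in the platform annotation, 8 have several and 17194 have none named here.

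Values of the normalized table were taken to log2, and 23860 probes (12759 genes) above 20 on at least 2 of 8 arrays were fitted with limma 3.58.1 in R 4.3.3, with 1 mean per group over all 8 arrays. The tests were two-sided, with Benjamini-Hochberg adjustment over all probes and a threshold of 0.05. For gene lists and likeness, the brightest probe of a gene was used. The script was tested on simulated data. Genes were named if they were CDK inhibitors, called members of the fixed pathway lists or up to 2 others of a list with the smallest p against DMSO, and neighbours at 9p21 and 11p15. CCNE1, CCNA2, CDK4, CDK6, MDM2, MYC, PSME3, RBL1 and TFDP1 were named in addition after values had been seen. The members and lists were chosen with earlier results of these data known. Same-numbered arrays of different groups deviated together (correlations of 0.363 to 0.471 over 6 pairs of groups), so the replicate number was treated as pairing and fitted as a block as an alternative. Other alternatives changed the table, normalization, array names, filter, centring, probe summary, variance model or arrays used.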

Additional observations from a re-analysis of the deposited data

How the results depend on the processing

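Counts of CDK inhibitor probes called depended on the setting. The header's names were applied to the non-normalized table (normexp and quantile) and, as an alternative chosen after seeing the data, to the value table itself. With JQ1 alone (1) the count was 0 with the mean of a gene's probes, the header's names or the compared arrays alone, and 2 with the replicate block, median centring, trended robust variance or either use of the non-normalized table (normexp with quantile, or quantile with a floor of 20). With both drugs against DMSO (2) it was 1 without a filter and with the header's names on the non-normalized table, and 0 with those names on the value table or with the compared arrays alone. With both drugs against rapamycin (1) it was 0 without a filter, with the mean of probes, the header's names or the compared arrays alone, and 2 with the replicate block, trended robust variance or normexp. With JQ1 averaged (2) it was 1 without a filter and 0 with the header's names. Omissions of a single array gave 0 to 1, 0 to 1, 0 and 1 to 2. The other 4 comparisons had 0 in every setting run. The compared arrays alone leave fewer degrees of freedom, no filter adds probes to the fit and the adjustment, and the header's names compare other sets of arrays. What caused these and the other moves was not tested. Without the filter, counts over all probes fell for JQ1 alone (88 against 414), both against DMSO (173 against 1064), both against rapamycin (104 against 354) and JQ1 averaged (487 against 1838). They rose for rapamycin alone (32 against 3), both against JQ1 (33 against 0), the interaction (39 against 0) and rapamycin averaged (63 against 6). Over all probes, counts with the replicate block were 1461 against 414 (JQ1 alone), 3018 against 1064 (both against DMSO), 1462 against 354 (both against rapamycin), 3682 against 1838 (JQ1 averaged) and 200 against 6 (rapamycin averaged). With the compared arrays alone or 1 array left out these counts reached 0, except for JQ1 averaged (515 to 909). With the header's names on the value table they were 0, 145, 0, 1 and 305 in the same order, with 30 against 3 for rapamycin alone and 21 against 0 for both against JQ1. Beyond the calls given above, the block changed no other call of a CDK inhibitor probe.

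Directions reversed with the header's names on the non-normalized table for CDKN1A with rapamycin alone (-0.16), both against JQ1 (-0.14), the interaction (0.013) and rapamycin averaged (-0.15). They also reversed for the first CDKN1B probe with JQ1 alone (0.74), both against JQ1 (-0.019), both against rapamycin (0.56) and JQ1 averaged (0.65), for the second with JQ1 alone (0.67), both against rapamycin (0.75) and JQ1 averaged (0.71), and for the CDKN2D interaction (-0.056). With those names on the value table they reversed for CDKN1A with both against JQ1 (-0.23) and rapamycin averaged (-0.083), for the first CDKN1B probe with JQ1 alone (0.63), both against rapamycin (0.73), JQ1 averaged (0.68) and the interaction (0.10), and for the second with JQ1 alone (0.85), both against rapamycin (0.65), JQ1 averaged (0.75) and the interaction (-0.20). In that fit JQ1 averaged compares the same arrays as rapamycin averaged under the value table's names. The CDKN1B values of 0.68 and 0.75 are thus the rapamycin averaged changes given above, under another name. Uncalled interactions also reversed, with the mean of probes for CDKN1A (0.082) and CDKN1B (0.026), with normexp for the second CDKN1B probe (-0.10) and CDKN2D (-0.18), with quantile and floor for the same (-0.094 and -0.30), and with median centring for CDKN2D (-0.0069). Leaving out 1 array gave ranges across 0 for the first CDKN1B probe with JQ1 alone (-0.19 to 0.008), both against rapamycin (-0.30 to 0.063) and the interaction (-0.21 to 0.15), and for the interaction of the second CDKN1B probe (-0.21 to 0.37) and of CDKN2D (-0.38 to 0.40). Probes at the floor have no order among themselves, and 2 arrays per group limit the precision of all values.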
